A study of Mus musculus with 6 samples.

Results

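The genes described here carry out MHC class I presentation: the chains of the class I molecule, the transporter that brings peptides to it, the immunoproteasome that cuts them, and the factor that switches the set on. The members are the rows of the deposited expression table whose symbol was B2m, H2-K1, H2-D1, H2-T23, Tap1, Tap2, Tapbp, Psmb8, Psmb9 or Nlrc5. All 10 of the 10 were present, among 12161 genes in all. They were measured by mRNA sequencing in LSK cells, a bone marrow fraction sorted for Sca1 and Kit and against lineage markers, which contains the stem cells of the blood. In the MIG-Hhex group, 3 libraries came from cells given Hhex, a homeobox transcription factor, by a retrovirus that also carries GFP. In the MIG group, 3 libraries came from cells given the same retrovirus without Hhex. Both groups came from C57BL/6 mice, whose age the labels do not give, and both were kept for 2 days in IL-3, IL-6, stem cell factor and Flt3 ligand and then sorted for GFP. The added Hhex is driven by the virus in cultured cells, so the comparison is one of forced expression.

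Class I molecules sit on nearly every nucleated cell and hold short peptides cut from the cell's own proteins, which CD8 T cells read. The proteasome cuts the peptides, the TAP transporter pumps them into the endoplasmic reticulum, tapasin holds the empty class I chain at the transporter until a peptide fits, and beta-2-microglobulin completes the molecule. Interferons raise most of these genes together, in part through the coactivator Nlrc5.

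Among the 10 members 2 rose and 0 fell, and the other 8 stayed short of the threshold (limma, adjusted p under 0.05 over all genes). By the same rule 9.44% of all genes rose and 8.52% fell, and a count of 2 among 10 is too small to be read as a result about the members. Tapbp rose 1.43-fold and H2-T23 1.18-fold. The median member had a log2 fold change of 0.19, against −0.02 over all genes. Of the 10 members 9 were above 0, against 46.1% of all genes. The 9 include Tap2, whose log2 fold change of 0.00022 was in effect no change. The members are read from the same libraries and are not independent of each other, and the count of signs was not tested. The median size of the change, sign ignored, was 0.19 for the members and 0.17 for all genes. At an unadjusted p under 0.05 there were 4 members, and 34.3% of all genes.

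Values are the deposited log2 expression values, which appear to be per unit of gene length. The number of reads behind them is unknown. Library medians lay between 3.56 and 3.60. Hhex, the check of the labels, stood at 7.61, 9.34 and 9.06 in the MIG-Hhex libraries of replicates WT3, WT691 and WT703, and at 5.18, 5.05 and 5.13 in the MIG libraries of those replicates. The libraries of replicate WT3 ran on flow cell C3RJFACXX and the other 4 on flow cell C5LWPANXX, and the fit holds a term for the flow cell. It holds no term for the replicate. The count of members that rose depended on this choice. It was 0 without the flow cell term and 4 with the replicate as a block. Kit, a defining LSK marker, stood between 4.44 and 4.77 with MIG-Hhex and between 4.62 and 4.86 with MIG. The labels call the replicates biological without naming separate mice, so p-values measure the spread between these libraries. In bulk RNA, a change in the make-up of the cells and a change per cell cannot be told apart.

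By level, B2m led at a mean log2 value of 10.33 over the 6 libraries, above 99.9% of genes or level with them. H2-K1 followed at 8.95, then H2-D1 at 8.19 and Psmb8 at 8.05, whose ranges overlapped. Psmb9 stood at 6.62, below all of these and above the rest. Tapbp at 5.67, H2-T23 at 5.58, Tap1 at 5.40 and Tap2 at 5.19 formed a run in which each overlapped its neighbour. Nlrc5 was last at 1.99. B2m and H2-K1 were thus the highest and the regulator the lowest, while the chain H2-T23 lay below both proteasome subunits. The comparison between genes holds only as far as the scale is per unit of length.

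Of the members, 8 lie on chromosome 17 within 2.11 Mb, in the mouse MHC, B2m lies on chromosome 2 and Nlrc5 on chromosome 8 (GRCm38). Psmb9, Tap1, Psmb8 and Tap2 are neighbours within 34.3 kb. Psmb9 and Tap1 point away from each other across a gap of 225 bases, so their RefSeq promoter windows (GRCm38.p6; 250 bases before a start and 50 after) share 275 bases.

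B2m encodes beta-2-microglobulin, the small chain that every class I molecule needs. B2m stood at 10.49, 10.59 and 10.31 with MIG-Hhex and at 10.47, 10.12 and 10.00 with MIG, for replicates WT3, WT691 and WT703. The groups overlapped, because the MIG library of replicate WT3 lay above a MIG-Hhex library. The log2 fold change was 0.26 (SE 0.12, 95% interval −0.04 to 0.56, limma adjusted p = 0.19). B2m has Entrez ID 12010 and spans 122147687 to 122153082 on chromosome 2. A RefSeq model of Patl2 covers the same 5396 bases and was not analysed here.

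The start of B2m is shown because it carries the spelling of an interferon-stimulated response element, the site bound by interferon regulatory factors. The window is chr2:122147437-122147736, plus strand, GRCm38.p6 (RefSeq), with the match GAAANNGAA in capitals.
B2m: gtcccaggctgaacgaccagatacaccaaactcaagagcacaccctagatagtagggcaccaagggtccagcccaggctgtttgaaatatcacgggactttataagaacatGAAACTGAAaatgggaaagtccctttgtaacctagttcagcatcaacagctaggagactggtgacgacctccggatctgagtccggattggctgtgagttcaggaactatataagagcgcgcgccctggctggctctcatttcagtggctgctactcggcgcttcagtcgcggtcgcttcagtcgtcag
Searched on both strands, GAAANNGAA occurred in 8.56% of 32851 RefSeq promoter windows. Its match here lies at position −139 relative to the transcript start. The window of H2-T23 holds the same spelling, at position −123. A match is a description of the letters, not evidence of a site.

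H2-K1 and H2-D1 are the classical class I heavy chains, which present peptides to CD8 T cells. H2-K1 stood at 9.17, 9.03 and 8.89 with MIG-Hhex and at 9.17, 8.80 and 8.63 with MIG. In the pair of replicate WT3 it hardly differed, and in the pairs of WT691 and WT703 the MIG-Hhex library was higher. H2-D1 stood at 8.36, 8.37 and 8.12 with MIG-Hhex and at 8.17, 8.15 and 7.95 with MIG, and was higher in each pair by 0.19, 0.22 and 0.17. For H2-K1 the log2 fold change was 0.16 (95% interval −0.05 to 0.38, limma adjusted p = 0.254). For H2-D1 it was 0.19 (95% interval −0.02 to 0.41, limma adjusted p = 0.175). With the replicate number as a block H2-D1 passed (limma adjusted p = 0.0327).

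The heavy chain promoters are shown side by side because the copies are alike at the stretch known for class I control, an NF-kB site followed by an interferon-response element. Of 180 bases compared without gaps, 156 (86.7%) were identical. H2-K1 is at chr17:34000338-34000517 on the minus strand and H2-D1 at chr17:35262864-35263043 on the plus strand (GRCm38.p6, RefSeq). Capitals mark the NF-kB spelling GGGATTCCC and, after it, the reverse strand of GAANNGAAA.
H2-K1: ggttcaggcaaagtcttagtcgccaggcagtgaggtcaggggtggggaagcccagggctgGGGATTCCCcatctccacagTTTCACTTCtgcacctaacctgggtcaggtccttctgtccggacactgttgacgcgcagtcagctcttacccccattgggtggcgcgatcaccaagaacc
H2-D1: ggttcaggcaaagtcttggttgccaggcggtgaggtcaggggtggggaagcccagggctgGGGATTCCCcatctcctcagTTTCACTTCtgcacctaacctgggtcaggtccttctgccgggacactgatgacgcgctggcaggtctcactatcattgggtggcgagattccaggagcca
GGGATTCCC was found in 0.353% of the 32851 promoter windows and GAANNGAAA, a spelling added after the promoters were read, in 7.52%, each on both strands.

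Reads of the heavy chains can be shared between copies. Of the 50-base windows of the longest annotated H2-K1 transcript, 8.79% also occur in transcripts of other genes, and the share is 14.3% for H2-D1 and 28.8% for H2-T23 (GENCODE M21). How the authors' counting treated such reads is not given in the sources used here, so the values of these 3 genes are uncertain. The sum over all 11 measured H2 class I chains, on the linear scale, was 1048, 1057 and 917.5 with MIG-Hhex and 1007, 894.6 and 797.6 with MIG. That sum was higher with MIG-Hhex in each pair, and the groups overlapped.

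H2-T23 encodes Qa-1, a nonclassical chain that shows leader peptides of other class I chains to inhibitory receptors of NK cells. It stood at 5.85, 5.60 and 5.65 with MIG-Hhex and at 5.73, 5.25 and 5.38 with MIG. It was higher within each pair, by 0.12, 0.35 and 0.26, while the groups overlapped because both libraries of replicate WT3 were high. H2-T23 rose by 0.24 in log2 units (SE 0.07), or 1.18-fold, with a limma adjusted p of 0.0483. The call was lost in each of the 9 runs made with a library or a replicate pair removed, where the limma adjusted p lay between 0.0663 and 0.166. A long noncoding RNA, A930015D03Rik, covers all 2725 bases of H2-T23; it averaged 0.77 ± 0.21 with MIG-Hhex and 0.64 ± 0.62 with MIG (SD, n = 3 each; log2 fold change 0.13, limma adjusted p = 0.813).

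Tapbp encodes tapasin, which bridges the class I chain and the transporter and selects peptides that bind well. Tapbp stood at 5.94, 6.13 and 5.71 with MIG-Hhex and at 5.58, 5.43 and 5.24 with MIG. Every MIG-Hhex library lay above every MIG library. The averages were 5.93 ± 0.21 with MIG-Hhex and 5.41 ± 0.17 with MIG (SD, n = 3 each), a rise of 0.51 on the log2 scale (SE 0.12, 95% interval 0.22 to 0.80, limma adjusted p = 0.0341). Of all genes, 9.56% had a log2 fold change at least as large. The call held in 2 of those 9 runs, with limma adjusted p between 0.0234 and 0.112 across them. Within flow cell C5LWPANXX alone the value was 0.59 (limma adjusted p = 0.0799). The runs without the WT3 pair, or without either of its libraries, repeat that estimate and are not separate checks. In the pair of replicate WT3 the difference was 0.36. Tapbp has Entrez ID 21356 and spans 33919478 to 33929290 on chromosome 17, where 1019 bases overlap the noncoding gene Gm19412, not analysed here.

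The Tapbp promoter is shown as that of the member with the largest rise. It lies at chr17:33919228-33919527 on the plus strand (GRCm38.p6, RefSeq) and holds no match, on either strand, to GAAANNGAA, GAANNGAAA or GGGATTCCC. These letters are only absent from this window.
Tapbp: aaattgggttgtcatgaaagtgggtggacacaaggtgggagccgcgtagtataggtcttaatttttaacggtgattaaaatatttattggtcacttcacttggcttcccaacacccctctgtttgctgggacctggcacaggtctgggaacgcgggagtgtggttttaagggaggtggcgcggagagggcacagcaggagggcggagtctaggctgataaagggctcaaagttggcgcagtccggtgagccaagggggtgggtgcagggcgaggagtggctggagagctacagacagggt

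Tap1 and Tap2 encode the unlike chains that pair to form the peptide transporter. Tap1 stood at 5.51, 5.64 and 5.37 with MIG-Hhex and at 5.34, 5.31 and 5.23 with MIG. Every MIG-Hhex library lay above every MIG library. The log2 fold change was 0.21 (SE 0.08, limma adjusted p = 0.114), and with the replicate number as a block Tap1 passed (limma adjusted p = 0.0419). Tap2 stood at 5.15, 5.17 and 5.25 with MIG-Hhex and at 5.16, 5.17 and 5.25 with MIG. Its libraries nearly coincided within each pair, and its log2 fold change was 0.00022 (95% interval −0.13 to 0.13).

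The level of Tap1 less that of Tap2, on the log2 scale, averaged 0.31 ± 0.18 with MIG-Hhex and 0.10 ± 0.10 with MIG (SD, n = 3 each). The difference between groups, 0.21, had an exact two-sided permutation p of 0.3, or 0.5 adjusted over 5 such differences. With 3 libraries a group the smallest p this test can give is 0.1, and the test does not use the pairing. Within the pairs of WT3, WT691 and WT703, Tap1 less Tap2 differed by 0.17, 0.34 and 0.13, above 0 in each. The comparison was chosen after the values were seen.

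Psmb8 and Psmb9 encode catalytic subunits that replace Psmb5 and Psmb6 in the immunoproteasome, the form that cuts peptides suited to class I. Psmb8 stood at 8.27, 8.10 and 8.05 with MIG-Hhex and at 8.16, 7.81 and 7.92 with MIG. Psmb9 stood at 6.85, 6.71 and 6.54 with MIG-Hhex and at 6.89, 6.38 and 6.32 with MIG. Both were higher with MIG-Hhex in the pairs of WT691 and WT703, and in the pair of WT3 Psmb8 was higher and Psmb9 lower. Psmb8 had a log2 fold change of 0.18 (SE 0.06, limma adjusted p = 0.0944) and Psmb9 one of 0.17 (SE 0.08, limma adjusted p = 0.203). The groups overlapped for both genes.

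The constitutive subunits gave a yardstick. Psmb5, Psmb6 and Psmb7 had log2 fold changes of 0.02, −0.03 and −0.03 (limma adjusted p = 0.915, 0.776 and 0.851). Psmb8 less Psmb5 averaged 1.04 ± 0.22 with MIG-Hhex and 0.88 ± 0.20 with MIG, and Psmb9 less Psmb6 averaged −0.82 ± 0.14 with MIG-Hhex and −1.02 ± 0.15 with MIG (SD, n = 3 each, log2 scale). The exact two-sided permutation p was 0.4 for Psmb8 and 0.2 for Psmb9, and 0.5 each after adjustment. Psmb10, the third inducible subunit, less Psmb7 gave a group difference of 0.06 (exact two-sided permutation p = 0.7). These tests do not use the pairing, and 0.1 is the smallest p they can give. Within the pairs of WT3, WT691 and WT703, Psmb8 less Psmb5 differed by 0.09, 0.03 and 0.36. Psmb9 less Psmb6 differed by 0.02, 0.25 and 0.34, so both were above 0 in each pair. Psmb10 less Psmb7 differed by 0.13, 0.12 and −0.08, below 0 in the pair of WT703.

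Nlrc5 is the NOD-like receptor that enters the nucleus and switches on class I genes. Nlrc5 stood at 1.25, 2.41 and 2.19 with MIG-Hhex and at 1.35, 2.48 and 2.29 with MIG. It was lower with MIG-Hhex in each pair by 0.10, 0.06 and 0.10, and both libraries of replicate WT3 were lower than the other 4. The log2 fold change was −0.09 (SE 0.12, 95% interval −0.37 to 0.20, limma adjusted p = 0.644). Ciita, the corresponding regulator of class II genes, rose by 3.10 (limma adjusted p = 0.00483). It lay between −1.11 and −0.83 with MIG-Hhex and between −4.26 and −3.99 with MIG, near the bottom of the table, so the size of the rise depends on the unknown offset of the log2 scale. With an offset of 1 on the linear scale the rise was 0.50 (limma adjusted p = 0.0085). Ciita less Nlrc5 was −2.36, −3.25 and −3.30 with MIG-Hhex and −5.46, −6.74 and −6.28 with MIG, with no overlap. That difference had an exact two-sided permutation p of 0.1, the smallest the test can give, and 0.5 adjusted over the 5 differences.

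**Figure D1:**
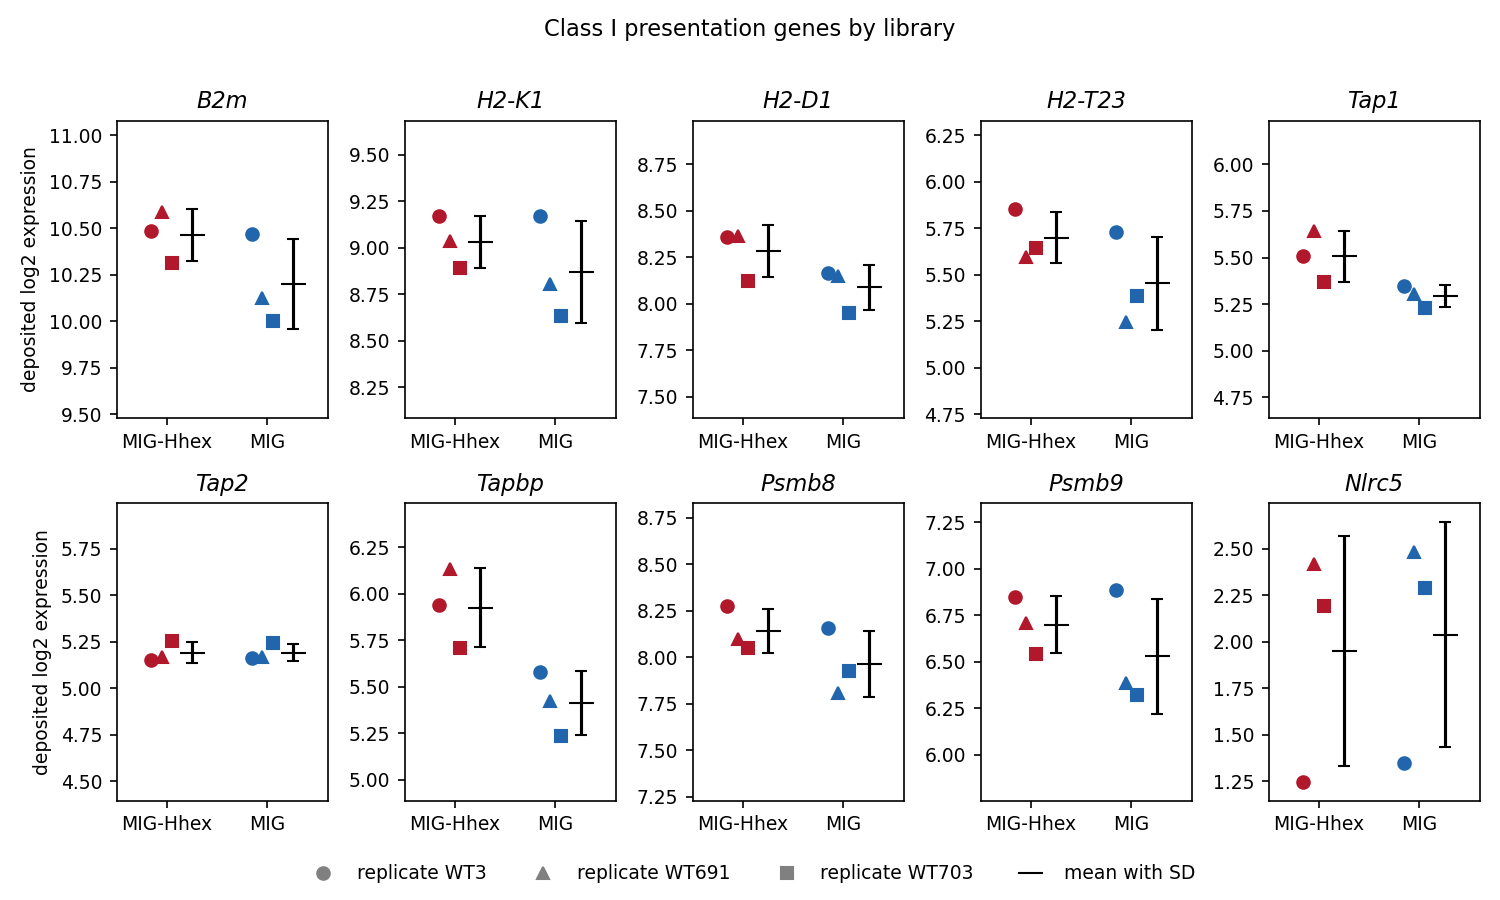
Deposited log2 expression (y axis, each panel spanning 1.6 log2 units) of each of the 10 class I genes in MIG-Hhex and MIG libraries; points are libraries, with a marker per replicate, and the bar is the mean with SD over 3 libraries. The groups separate fully for Tapbp and Tap1 and overlap for the other 8, and the Tap2 points coincide.

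Of the 10 members, 2 had all MIG-Hhex libraries above all MIG libraries, against 10.2% of all genes, and 0 had them all below, against 11.0% of all genes. Higher in all 3 pairs were 6 members, namely B2m, H2-D1, H2-T23, Tap1, Tapbp and Psmb8, against 27.5% of all genes. The members are not independent of each other, and this count was not tested. The pairs differed in size: the median member stood 0.07 above MIG in the pair of replicate WT3, 0.31 above in WT691 and 0.20 above in WT703. Positive differences numbered 6, 8 and 9 of 10 in these pairs, where 46.9%, 46.3% and 46.8% of all genes were positive. The rise of Hhex in these pairs was 2.43, 4.29 and 3.93. A link between it and the size of the members' change was not tested. The WT3 pair is also the only pair on flow cell C3RJFACXX, and H2-D1 and Tap1 changed least in the pair of WT703. A test of the flow cells against each other in the size of the change passed 0 of 12161 genes (limma, 600 at an unadjusted p under 0.05), and its adjusted p for the members lay between 0.982 and 0.999. That test sets the WT3 pair against the other 2 pairs and does not compare WT691 with WT703. Even for Hhex its adjusted p was 0.928, so it says little about whether the pairs differ.

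**Figure D2:**
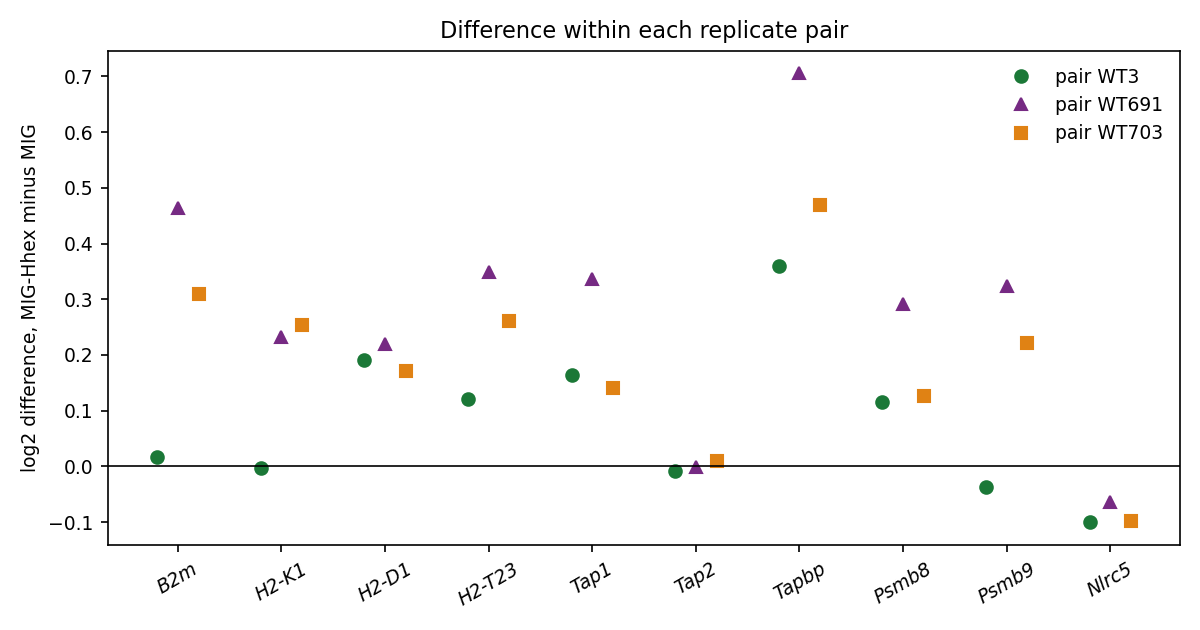
Log2 difference, MIG-Hhex minus MIG, within each of the 3 replicate pairs (marker and colour) for the 10 class I genes. Tapbp lies highest, at 0.36, 0.71 and 0.47, Tap2 lies close to 0 in every pair, Nlrc5 lies below 0 in every pair, and the WT3 points are the lowest of the 3 for most genes.

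**Figure D3:**
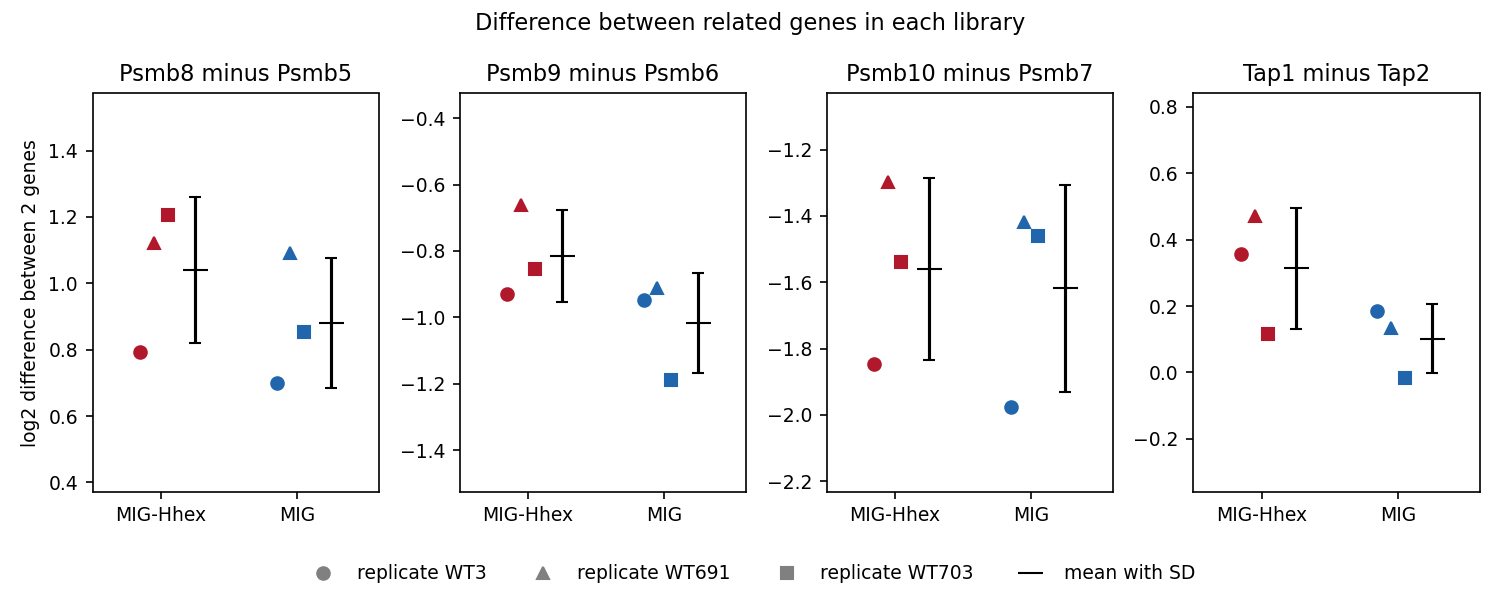
Log2 difference between 2 genes of related role in each library, for inducible against constitutive proteasome subunits and for Tap1 against Tap2, with MIG-Hhex to the left of MIG; points are libraries and bars the mean with SD over 3 libraries, each panel spanning 1.2 log2 units. The groups overlap in all 4 panels, and Psmb8 less Psmb5 has means of 1.04 with MIG-Hhex and 0.88 with MIG.

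Outside the 10 members, related genes were taken from lists of the pathway, chosen with earlier results of these data known. Their counts stand beside the 9.44% of all genes that rose and the 8.52% that fell. Of 13 measured other class I-like chains, out of 23 listed, 0 rose and 1 fell. The one that fell was Hfe, a class I-like protein that controls iron uptake, at 2.07, 0.73 and 0.62 with MIG-Hhex and 3.34, 3.07 and 2.74 with MIG. Every MIG-Hhex library lay below every MIG library, and Hfe fell by 1.91 (SE 0.22, limma adjusted p = 0.00348). The Qa-2 chains H2-Q6 and H2-Q7 had changes of −0.23 and −0.10, neither past the threshold.

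Of 19 peptide loading and trimming partners, 1 rose and 0 fell, with a median of −0.03. Their summed linear level was 3840 to 4090 with MIG-Hhex and 4172 to 4429 with MIG. The groups did not overlap, and MIG-Hhex was lower. A linear sum is weighted to its highest genes. Among these, Hspa5 averaged 9.62 with MIG-Hhex and 9.94 with MIG, short of the threshold (limma adjusted p = 0.0635). Called or not, 7 of the 19 genes had a log2 fold change above 0. The sum alone does not show a fall of the whole list. The gene that rose was Tapbpl, a tapasin-related peptide editor, at 4.02, 4.42 and 4.17 with MIG-Hhex and 3.58, 4.01 and 3.84 with MIG. It rose by 0.40 (SE 0.09, limma adjusted p = 0.0294) and was higher within every pair, as Tapbp was. Its call held in 2 of the 9 runs with a library or pair removed, with limma adjusted p up to 0.118. Calreticulin (Calr) and Pdia3, chaperones of the same loading complex, had log2 fold changes of −0.06 and −0.21, both short of the threshold (limma adjusted p = 0.716 and 0.0994). Of 3 measured inducible proteasome parts outside the members, Psmb10 (0.03) and the activator subunits Psme1 (0.16) and Psme2 (0.27), 0 passed. Of 17 constitutive proteasome genes, 0 passed in either direction and the median was −0.02.

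Among 32 regulators and interferon signalling genes 5 rose and 2 fell, against 9.44% and 8.52% of all genes, and the median was 0.12. Counts this small are not read as a result about the regulators. Irf8, an interferon regulatory factor of myeloid cells, rose by 0.54 (SE 0.06, limma adjusted p = 0.00372). Tyk2, a kinase of interferon receptors, rose by 0.47 (limma adjusted p = 0.0194), a call that held in 3 of the 9 runs with libraries removed. Stat3, a cytokine-activated transcription factor, rose by 0.21 (limma adjusted p = 0.0332), a call that held in 0 of the 9. The fifth was Socs1, a feedback inhibitor of JAK signalling, at 0.66 (limma adjusted p = 0.044), which was named after its value was seen. Irf1, an interferon-induced factor that acts on class I promoters, had a log2 fold change of 0.17, short of the threshold (limma adjusted p = 0.118). Rfxap, a part of the complex that Nlrc5 and Ciita join on DNA, fell by 0.35 (limma adjusted p = 0.0357), and Ifngr2, a chain of the interferon gamma receptor, fell by 0.41 (limma adjusted p = 0.0372). The call held in 0 of the 9 runs for Rfxap and in 2 of the 9 for Ifngr2. Of 6 measured class I receptors, 0 rose and 1 fell, the Ly49 family member Klra2, by 2.03 (limma adjusted p = 0.0312). Klra2 lay between −3.02 and −0.28 with MIG-Hhex and between −0.12 and 0.31 with MIG, and with an offset of 1 on the linear scale it fell by 0.61. Its call held in 3 of the 9 runs, with limma adjusted p up to 0.159. Those 3 runs leave out the WT3 pair or a library of it. They repeat the same log2 fold change, −2.76, and are not separate checks.

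**Figure D4:**
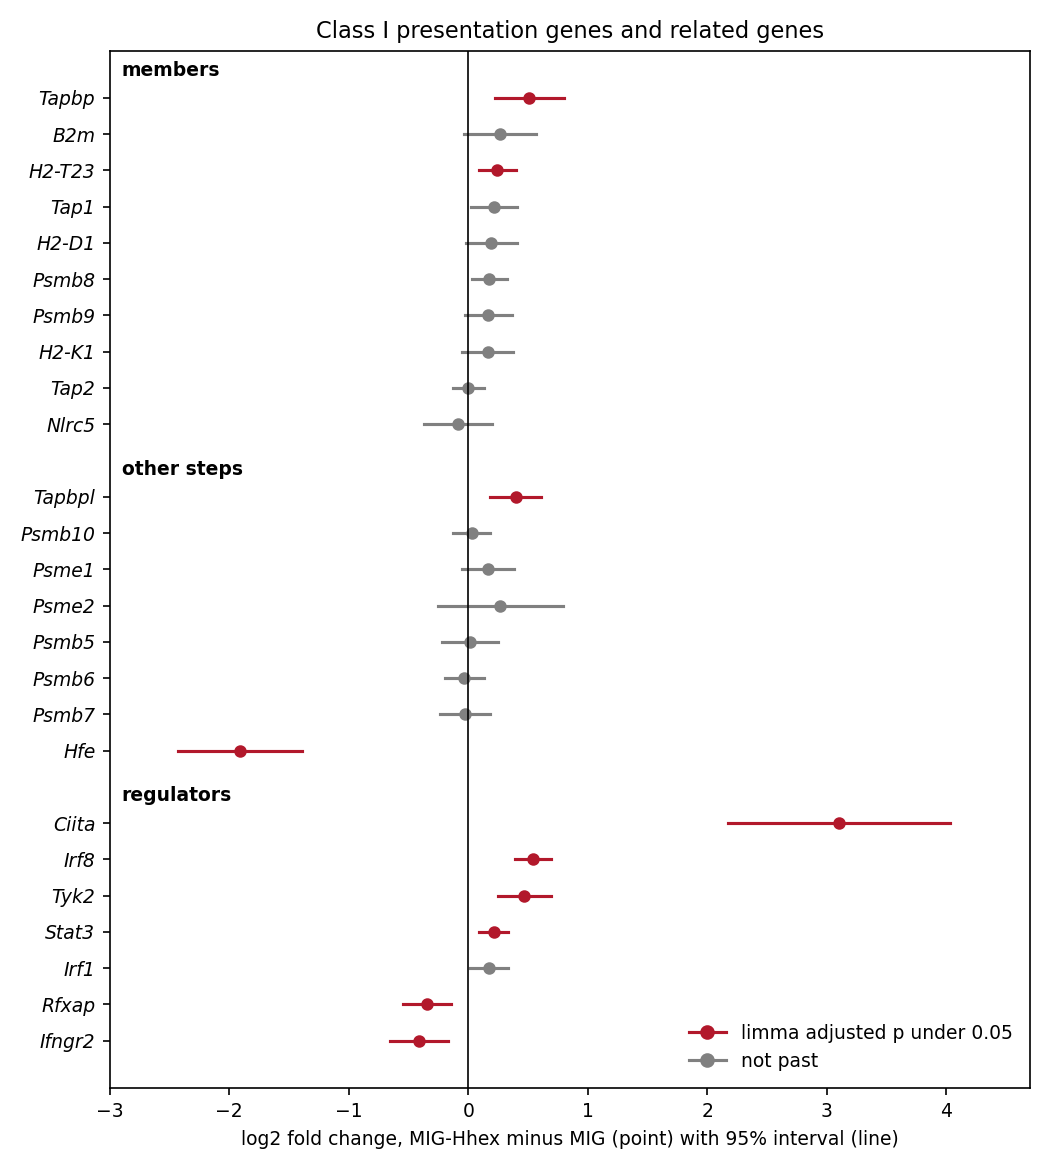
Log2 fold change, MIG-Hhex minus MIG, with its 95% interval for the members, for other steps of class I presentation and for regulators; red marks a limma adjusted p under 0.05. Among the members Tapbp at 0.51 and H2-T23 at 0.24 are red, the other 8 intervals reach no further than 0.56, and Ciita at 3.10 (0.50 with an offset of 1 on the linear scale) and Hfe at −1.91 lie outside that range.

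The 6 genes outside the members with the profile most like the members' mean over the 6 libraries were Intu, Cnr2, Rnf208, Pdcl, Xaf1 and Mtmr14. Their Pearson correlations were between 0.988 and 0.995 over 6 libraries that all genes share, and are a description. The members' mean, after centring, was 0.087, 0.178 and 0.012 with MIG-Hhex and 0.005, −0.107 and −0.175 with MIG, for WT3, WT691 and WT703. Picking genes by likeness to that profile selects for a positive group difference. The p-values of these genes come from the values that picked them, so they are not a separate test. Cnr2, the cannabinoid receptor of immune cells, had a log2 fold change of 0.86, past the threshold (limma adjusted p = 0.037). It kept its call in 2 of the 9 runs with libraries removed. Xaf1, an interferon-inducible inhibitor of XIAP, differed by 0.75 in log2 units, short of the threshold (limma adjusted p = 0.188). Mtmr14, a lipid phosphatase, differed by 0.28 (limma adjusted p = 0.115) and passed with the replicate block (limma adjusted p = 0.0491).

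Marker lists of other cells were read beside the class I genes, and beside the 9.44% of all genes that rose and the 8.52% that fell. Of 9 measured granulocyte markers 6 rose and 0 fell, and their summed linear level was 3725 to 5005 with MIG-Hhex and 1782 to 3139 with MIG. Of 14 macrophage and dendritic cell markers 6 rose and 0 fell, with sums of 142.9 to 184.5 with MIG-Hhex and 104.1 to 135.9 with MIG. The 14 LSK markers gave 0 higher and 1 lower, Meis1, with sums of 530.8 to 632.3 with MIG-Hhex and 609.5 to 689.7 with MIG. Of 13 erythroid and megakaryocytic markers 5 rose and 2 fell, with sums of 200.6 to 226.8 with MIG-Hhex and 211 to 250.4 with MIG. That sum is weighted to Tfrc, the highest of these markers, which fell. Called or not, 10 of the 13 had a log2 fold change above 0, and the median was 0.73. Of 15 T and NK cell markers 2 were measured, with sums of 3.34 to 4.65 with MIG-Hhex and 3.71 to 5.01 with MIG. Prf1, a killer cell protein, rose by 2.47 at levels below 0 on the log2 scale in every library, and Lck was short of the threshold. Of B cell markers 1 was measured, Cd79b, at 3.94 to 4.15 with MIG-Hhex and 3.65 to 4.04 with MIG. The part of these cells in the class I values was not tested.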

How the data were processed

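Messenger RNA of 6 libraries, 3 per group, was analysed from a single deposited table with a log2 expression value per gene and library, as the file headers show. The submitters' processing notes name Subread, featureCounts, limma, edgeR and build mm10. The sources used here state no version, offset or normalization. The column names refer to read 1. Read counts and depth are unknown, and no counting interval was given. The linear values of a library sum to between 430079 and 498850, too little for a CPM or TPM scale over all genes, and they were read as probably per unit of length. The table has 12161 rows, 60 without a symbol; 12052 Entrez IDs matched RefSeq (GRCm38.p6). No column of another sample was present.

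limma 3.58.1 in R 4.3.3 fitted vector and flow cell to the log2 values of all genes, with eBayes and trend=TRUE. No filter on low values was used. P-values are two-sided, adjusted over all genes by Benjamini-Hochberg at 0.05, and fold changes are MIG-Hhex minus MIG. The fit was tested on simulated data with a flow cell shift but no replicate effect, so that test does not cover the pairing of libraries. Promoters are RefSeq windows; transcripts are GENCODE M21. Members and gene lists were chosen with earlier results of these data known. Genes named were all members, Hhex, up to 4 genes past the threshold by direction and list, counterparts of members (Psmb5, Psmb6, Psmb7, Psmb10, Psme1, Psme2, Irf1, Ciita) and the 6 genes most like the members in profile; others are said to be picked by value or serve as context. A gene that the rule also names is not reported here.

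Libraries with the same replicate name were taken as pairs: their deviations from the group means correlated at 0.742 (WT3), 0.585 (WT691) and 0.656 (WT703) over genes.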

Additional observations from a re-analysis of the deposited data

How the results depend on the processing

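The number of higher and lower genes fell to 119 and 98 without the flow cell term and to 698 and 519 within flow cell C5LWPANXX. Without the mean-variance trend 791 genes were higher and 638 lower. With a library or a replicate pair removed, between 355 and 835 genes were higher and between 270 and 634 lower. The 2 members called higher became 0 without the flow cell term, within flow cell C5LWPANXX or without the trend, 1 with median centring (H2-T23 lost, adjusted p = 0.0513), 4 with the replicate block, and 0 to 1 in the left-out runs. Under the block Tapbp and H2-T23 stayed called and H2-D1 and Tap1 were added. The block gave more calls over all genes too, 1506 higher and 1473 lower, against 1148 and 1036 in the main fit. Tapbp kept its call in the runs without replicate WT691 and without the MIG-Hhex library of WT703. Of the members, 8 stayed above 0 in all 9 left-out runs. Signs changed only for genes that passed no test: Tap2 (−0.00686 with median centring; −0.0254 to 0.0235 in left-out runs), Psmb5 (−0.102 to 0.142), Psmb6 (−0.0969 to 0.0257), Psmb7 (0.0278 within flow cell C5LWPANXX; −0.108 to 0.0278), Psmb10 (−0.0434 to 0.087) and Psme2 (−0.00995 to 0.481). Over all named genes and alternatives, 96 values lost their call, 4 gained one, 19 changed sign and 455 did neither. The cause of these changes was not tested. An offset of 1 on the linear scale, a filter on the mean and quantile normalization kept 2 members higher. Without either library of replicate WT3 the remaining one is absorbed by the flow cell term, so those runs repeat the estimate made without the pair. With unknown depth, no limit of detection can be given for Nlrc5, the lowest member.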

Other observations

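Several class I genes differed in level between the flow cells, in the same direction in both groups. Nlrc5 averaged 1.30 over the 2 libraries of flow cell C3RJFACXX (replicate WT3) and 2.34 over the 4 of flow cell C5LWPANXX. The Qa-2 chains H2-Q6 and H2-Q7 averaged 2.81 and 3.78 on flow cell C3RJFACXX and 4.46 and 4.97 on flow cell C5LWPANXX. Ly6a, which encodes Sca1 and so is among the genes that define LSK cells, averaged 3.37 on flow cell C3RJFACXX and 6.11 on flow cell C5LWPANXX. Psmb9, H2-K1 and H2-T23 ran the other way, with averages 0.38, 0.33 and 0.32 higher on flow cell C3RJFACXX. These values were picked after they were seen and were not tested, and flow cell and replicate WT3 cannot be told apart.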
